A study of Mus musculus with 27 samples.

Results

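The response of non-irradiated mouse bone marrow-derived macrophages to LPS was examined in 6 of the 27 libraries of this series. The 3 libraries labelled M1 came from cells given LPS at 100 ng/ml for 2 days, and the 3 libraries labelled M0 came from cells kept for the same 2 days in control medium. All 6 cultures started from bone marrow of C57BL/6 femurs and tibias, received no irradiation, and had been grown for 7 days with the growth factor CSF-1 at 10 ng/ml. The labels give no sex, age or number of mice, and they do not say whether replicates were separate animals or cultures, so the p-values below measure the spread between these libraries. Genes with at least 1 CPM (read counts scaled by the authors to the size of the library) in at least 3 of the 6 libraries were compared, which were 12137 of the 19069 genes with a symbol, and the other 6932 were below that level. The third highest CPM was 1.0004 for Igsf10 and Vegfc, just inside this limit, and 0.9974 for Cxcr5 and Triqk, just outside it. A gene could pass through 1 group alone: 93 genes passed only through the LPS libraries and 90 only through the control libraries. Further libraries served as a comparison: 3 of non-irradiated cells given IL-4 at 20 ng/ml (M2), and 8 of cells given 5 Gy of FLASH or standard proton irradiation before CSF-1, then LPS or control medium.

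LPS is a lipid of the outer membrane of Gram-negative bacteria and is sensed by Toll-like receptor 4 together with MD-2 (Ly96) and CD14. Signalling through the adaptor MyD88 activates NF-kappaB and transcription of inflammatory cytokines, and signalling through the adaptor TRIF activates IRF3 and interferon beta. Secreted interferon beta then acts on its receptor and, through STAT and IRF factors, raises a broad set of antiviral genes. Macrophages exposed to LPS are also known for a change of metabolism, with itaconate made by the enzyme that Irg1 encodes and nitric oxide made by the enzyme that Nos2 encodes.

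Between 21.89 M and 24.94 M reads stood behind each of the 6 libraries, and both groups lay within that range. These numbers take the commonest nonzero value of a library, or a whole fraction of it, as the worth of a single read. The LPS libraries correlated with each other at 0.9753 to 0.9840 (Pearson's r of log2 values across genes, a description only). Control replicates 1 and 3 correlated at 0.9827, while control replicate 2 correlated with them at 0.9632 and 0.9642 and stood closer to the LPS libraries, at 0.9186 to 0.9365 against 0.8834 to 0.9114 for the other 2 control libraries. The antiviral interferon-stimulated genes listed for this work summed to 6484 CPM in control replicate 2, against 2886 and 3263 CPM in control replicates 1 and 3. Of the genes called higher in LPS, 55.5% had control replicate 2 as the highest control library, and of those called lower, 59.1% had it as the lowest. Such shares were not computed for genes that were not called, so these are not shown to be particular to called genes. The part of control replicate 2 in the results was tested only by leaving it out.

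The 3 genes taken as marks of LPS treatment were each higher in every LPS library than in any control library. Saa3, an acute-phase serum amyloid A protein, had 3651, 2756 and 4235 CPM in the LPS libraries and 35.5, 29.4 and 26.2 CPM in the control libraries. Irg1 (Acod1), which makes itaconate, had 1639.9, 2368 and 1816 CPM with LPS and 20.9, 38.9 and 20.4 CPM in control medium. Nos2, the inducible nitric oxide synthase, had 65.6, 186 and 118 CPM with LPS and 1.99, 2.09 and 2.52 CPM in control medium. The groups did not overlap for any of them. On the log2(CPM + 0.5) scale used for every fold change here, which understates changes near 0, the differences were 6.83 ± 0.19 for Saa3, 6.20 ± 0.27 for Irg1 and 5.40 ± 0.35 for Nos2 (± SE, n = 3 libraries per group). The adjusted p values from limma, with the Benjamini-Hochberg method over all 12137 genes, were 1.3e-05, 4.7e-05 and 0.00018.

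Macrophage genes were abundant in both groups, as the labelled cell type would have them. In bulk samples, fewer cells of a type and less RNA per cell cannot be told apart. Csf1r, the CSF-1 receptor, had 1561, 784 and 2004 CPM with LPS and 2183, 2177 and 2257 CPM in control medium, and the difference was not called (-0.71 ± 0.32, adjusted p = 0.135). Emr1 (Adgre1), the gene of the F4/80 antigen, had 3779, 1605 and 3074 CPM with LPS and 1467, 2653 and 1474 CPM in control medium, with overlapping groups. Cd68, a lysosomal protein of macrophages, had 874, 966 and 916 CPM with LPS and 1068, 907 and 1115 CPM in control medium, and was not called (adjusted p = 0.383). Itgam, the integrin chain CD11b, had 1383, 659 and 1231 CPM with LPS and 687, 622 and 763 CPM in control medium, and was not called either (adjusted p = 0.142). Spi1, the transcription factor PU.1, and Mertk, a receptor for dying cells, were called higher by 0.62 ± 0.12 and 0.53 ± 0.16. Mertk lost this call when any library other than control replicate 2 was left out. LPS replicate 2 held the lowest value of Csf1r, Emr1 and Itgam among the LPS libraries.

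At an adjusted p below 0.05, 3932 of the 12137 genes (32.4%) were called, 2015 higher with LPS (16.6%) and 1917 lower (15.8%). The 3 LPS libraries did not overlap the 3 control libraries for 5809 genes (47.9%), among them 3916 of the 3932 called. The response was lopsided in size: 319 genes rose by more than 2 on the log2 scale and 145 fell by more than 2, 62 rose and 5 fell by more than 4, and 23 rose but 0 fell by more than 5. The median change was 0.87 among the genes called higher and -0.92 among those called lower. Genes called higher carried 35.4% to 38.1% of all CPM in the LPS libraries and 15.2% to 19% in the control libraries. Genes called lower carried 10.4% to 11.5% with LPS and 22.3% to 26% in control medium. Of the genes that passed the level limit through 1 group alone, 80 of 93 were among the called higher and 69 of 90 among the called lower, which the limit itself favours. The split between higher and lower rests on the authors' scaling. With all libraries set to the same total, the median of all genes lay at -0.145 in place of -0.003 and the calls split into 1445 higher and 2716 lower (34.7% higher, against 51.2%). Without control replicate 2, 2101 genes were called higher and 2088 lower.

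Predicted gene models were passed over in naming genes, which left out Gm14446 with a rise of 5.83. Among the other genes, only those called, without overlap between the groups and at 5 CPM or more in the higher group were named. The 12 largest rises, from 6.83 to 5.42, were those of Saa3, Ccl5, Irg1, Ms4a4c, Il23r, Ccl8, Oasl1, Cfb, Ifi205, H2-Q6, Ccl12 and Gzmb. They comprise 3 chemokines, interferon-stimulated genes, the complement factor B gene, a class I gene, a chain of the interleukin-23 receptor and granzyme B. Ccl5, a chemokine for T cells and monocytes, had 1888, 2197 and 2349.8 CPM with LPS and 23.5, 45.6 and 20.2 CPM in control medium (6.23 ± 0.29, adjusted p = 5.6e-05). Il23r had 41.2, 50.4 and 37.1 CPM with LPS and stayed below 0.5 CPM in control medium, at 0.384, 0.410 and 0.217 CPM (5.69 ± 0.21). The control libraries were not alike for all of these genes: Ms4a4c had 957, 996 and 1007 CPM with LPS, against 10.4, 51.1 and 11.2 CPM in control medium, where replicate 2 held the high value.

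The largest falls by the same rule included those of Slco2b1, Gprc5c, Mamdc2, Fcrls, Vsig8, Cd163, Angptl4, Trf, Slc27a1, Plxdc2 and Mmp12, with fold changes between -4.90 and -3.45. Slco2b1, an organic anion transporter, had 3.72, 3.18 and 3.95 CPM with LPS and 125, 166 and 89.0 CPM in control medium (-4.90 ± 0.22, adjusted p = 4.7e-05). Trf, the iron carrier transferrin, had 198, 111 and 170.1 CPM with LPS and 1781, 2017 and 1992 CPM in control medium (-3.63 ± 0.21). Cd163, the scavenger receptor for haemoglobin and haptoglobin, had 0.512, 0.636 and 1.84 CPM with LPS and 19.1, 32.8 and 10.4 CPM in control medium (-3.79 ± 0.48). Mmp12, macrophage elastase, had 164, 464 and 241 CPM with LPS and 5185, 1447 and 3187 CPM in control medium (-3.45 ± 0.53). Absence of overlap was a condition for naming these genes, so it is no result of the comparison. The largest SE among the genes listed, 0.75, was that of Slc27a1, a fatty acid transporter. It had 1.91, 0 and 0.000672 CPM with LPS and 4.10, 10.8 and 18.2 CPM in control medium.

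**Figure D1:**
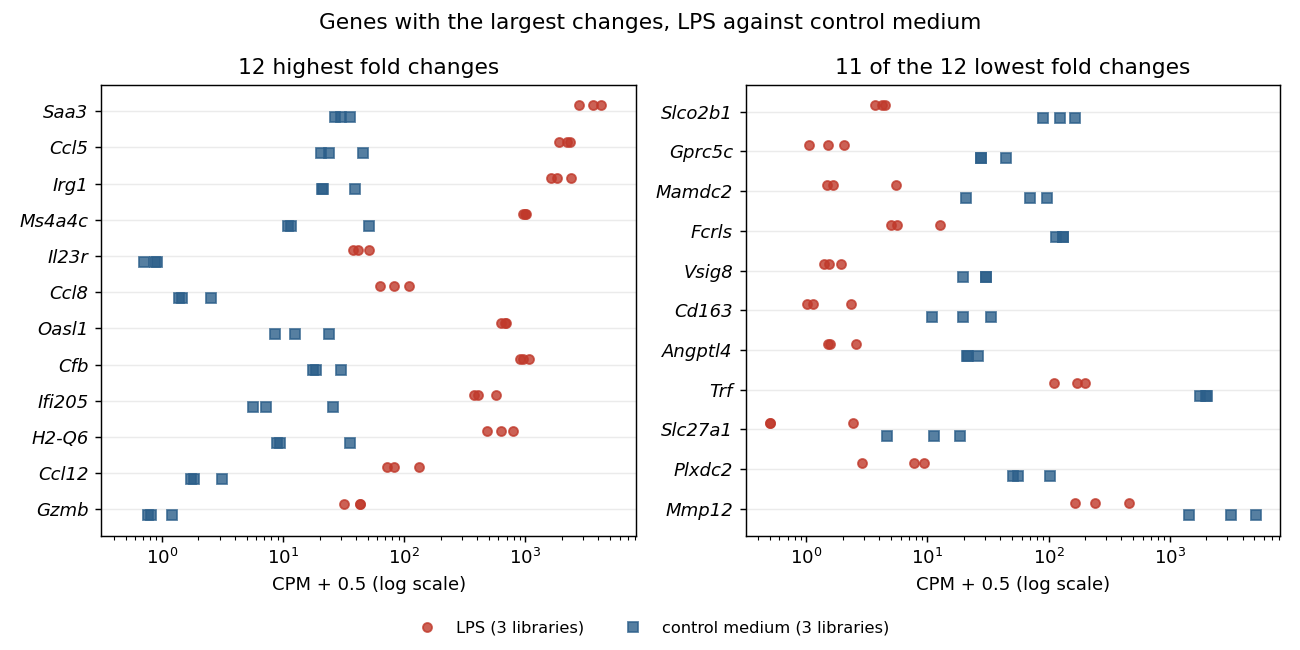
CPM + 0.5 on a log axis of the 12 genes with the highest and 11 of the 12 with the lowest fold changes, 1 point per library, LPS libraries as circles above the control libraries as squares. Only genes without overlap between the groups were eligible. Saa3 sits at 2756 to 4235 CPM with LPS and at 26.2 to 35.5 CPM in control medium.

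Promoter windows of strongly raised genes are printed to show the sequence that lies at their starts. Each window runs from 250 bases before the annotated start to 50 bases after it and comes from RefSeq on GRCm38.p6, whereas the submitters' notes name a human build for these mouse samples, so the windows are tied to the genes by symbol only. Of the 12137 genes, 9656 matched a window, 504 of them by a synonym. A search on both strands used GAAANNGAA, the core of the interferon-stimulated response element bound by IRF and STAT complexes, and GGANTTTCC, a core of the NF-kappaB site. Genes that rose more than the last one printed were passed over if their window held neither core. These were Ms4a4c, Il23r, Ccl8, Oasl1, H2-Q6, Ccl12 and Gzmb. Others, among them Ccl5, Cfb, Nos2 and Cxcl11, had no window. The printed windows were thus picked for holding a core. The 5 genes with the largest rises whose window held either core are shown, with those letters in capitals. They are Saa3 at chr7:46715627-46715926 on the minus strand, Irg1 at chr14:103046762-103047061 on the plus strand, Gm14446 (Ifit1bl1 in RefSeq) at chr19:34601919-34602218 on the minus strand, Ifi205 at chr1:174031706-174032005 on the minus strand and Tgtp1 at chr11:48992197-48992496 on the minus strand.
Saa3: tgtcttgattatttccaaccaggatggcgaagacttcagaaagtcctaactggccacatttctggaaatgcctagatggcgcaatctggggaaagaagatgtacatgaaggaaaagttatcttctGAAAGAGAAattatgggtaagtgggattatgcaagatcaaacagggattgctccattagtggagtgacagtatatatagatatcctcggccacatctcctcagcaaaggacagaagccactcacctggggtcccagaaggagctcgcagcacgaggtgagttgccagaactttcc
Irg1: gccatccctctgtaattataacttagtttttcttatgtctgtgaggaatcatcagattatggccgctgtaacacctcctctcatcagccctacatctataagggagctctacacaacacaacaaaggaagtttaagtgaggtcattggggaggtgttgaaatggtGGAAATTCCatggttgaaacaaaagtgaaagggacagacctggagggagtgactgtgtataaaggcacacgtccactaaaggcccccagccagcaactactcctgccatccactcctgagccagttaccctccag
Gm14446: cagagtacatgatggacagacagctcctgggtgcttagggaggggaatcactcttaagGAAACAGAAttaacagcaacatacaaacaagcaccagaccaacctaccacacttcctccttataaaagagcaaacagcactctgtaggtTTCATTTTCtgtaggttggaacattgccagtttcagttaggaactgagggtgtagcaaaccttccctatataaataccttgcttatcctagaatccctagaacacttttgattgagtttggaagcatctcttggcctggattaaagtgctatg
Ifi205: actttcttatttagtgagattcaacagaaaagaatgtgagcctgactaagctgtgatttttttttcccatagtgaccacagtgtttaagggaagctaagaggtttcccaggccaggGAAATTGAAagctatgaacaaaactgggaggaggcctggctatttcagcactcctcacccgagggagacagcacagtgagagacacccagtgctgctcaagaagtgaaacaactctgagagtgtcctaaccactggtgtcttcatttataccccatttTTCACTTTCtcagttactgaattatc
Tgtp1: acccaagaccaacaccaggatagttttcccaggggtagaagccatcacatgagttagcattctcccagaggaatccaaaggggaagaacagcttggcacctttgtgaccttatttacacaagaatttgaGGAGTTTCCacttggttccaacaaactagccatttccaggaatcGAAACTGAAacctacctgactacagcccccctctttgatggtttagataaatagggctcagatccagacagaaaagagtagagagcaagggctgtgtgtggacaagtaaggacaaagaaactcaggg

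In the window of Irg1 the NF-kappaB core began at base -85 from the start, and no GAAANNGAA was found. Saa3 held 1 interferon core, at -125, Gm14446 held 2, at -192 and -103, and Ifi205 held 2, at -134 and at base 25 after the start. Tgtp1, an interferon-inducible GTPase, held both kinds, with the NF-kappaB core at -121 and the interferon core at -77. GAAANNGAA was present in 11.6% of the windows of genes called higher, 5.09% of those called lower, 6.98% of those tested and not called, and 8.56% of all 32851 windows in the table. Among the windows of the antiviral list it was present in 26 of 51, and among those of the interferon-inducible GTPases in 10 of 13. GGANTTTCC was present in 2.24%, 0.999%, 1.31% and 1.25% of the same 4 sets. TTCNNNGAA, a core of STAT sites that can share bases with the first motif, was present in 9.73%, 5.94%, 6.37% and 8.3%. CCAAT, a promoter box not tied to LPS, was present in 36.8%, 39.3%, 37% and 37.4%. These shares describe short letter matches, and no test of them was made.

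Of 26 tested members of the TLR4 sensing and adaptor list, 9 rose and 1 fell, against 16.6% and 15.8% of all genes tested. Their median fold change was 0.5, and 13 rose and 1 fell without control replicate 2. Tlr4 itself had 119, 104 and 119.9 CPM with LPS and 117, 127 and 97.7 CPM in control medium, and its difference of 0.01 had a 95% interval from -0.29 to 0.31. Cd14 had 407, 154 and 450.3 CPM with LPS and 144, 369 and 144 CPM in control medium, so the groups overlapped through 1 library on each side and the gene was not called (0.63 ± 0.51). Among the members that rose, Irak3, an inhibitor of the pathway, had 190.2, 178 and 181 CPM with LPS and 25.3, 48.9 and 24.3 CPM in control medium (2.54 ± 0.25, adjusted p = 0.000668). Tlr3 and Tlr9, which sense double-stranded RNA and unmethylated DNA, rose by 2.72 and 2.19, and Myd88 rose by 1.02. Irak1, a kinase of the pathway, fell by 0.36. It lost this call without control replicate 1 or 3 or LPS replicate 1 or 2, and with the replicate number as a block.

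NF-kappaB subunits and their feedback inhibitors rose in 17 of 22 members and fell in 0, with a median of 1.34. The shares of all genes tested were 16.6% higher and 15.8% lower. Socs3, counted in this list as a feedback gene, inhibits cytokine signalling and is not an NF-kappaB subunit. It had 137, 249 and 147 CPM with LPS and 9.63, 8.94 and 15.4 CPM in control medium (3.90 ± 0.28, adjusted p = 0.000226). Nfkbia, the inhibitor that holds NF-kappaB in the cytoplasm, had 187, 282 and 236 CPM with LPS and 32.9, 90.8 and 40.7 CPM in control medium (2.21 ± 0.36). Traf1, a signalling adaptor, and Nfkbiz, a nuclear co-factor of NF-kappaB, rose by 2.95 and 2.26. For these genes LPS replicate 2 held the highest value of its group.

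Inflammatory and regulatory cytokines rose in 14 of 24 tested members and fell in 1, against 16.6% and 15.8% of all genes tested. A further 7 members were below the level limit. Of the 14 that rose, 2 passed that limit through the LPS libraries alone, Ifnb1 among them, which favours rises. Tnf had 60.3, 114 and 81.3 CPM with LPS and 9.02, 12.6 and 6.57 CPM in control medium (3.11 ± 0.29, adjusted p = 0.000559). Il1b had 127, 227 and 112 CPM with LPS, against 4.83, 38.6 and 5.22 CPM in control medium, and rose by 3.81 ± 0.75. The 38.6 CPM belonged to control replicate 2. Il18bp, a secreted protein that binds interleukin-18, was the largest rise of the list, with 167, 196 and 219 CPM with LPS and 6.18, 21.2 and 6.52 CPM in control medium (4.27 ± 0.43). Il10, an anti-inflammatory cytokine, had 11.6, 24.5 and 9.66 CPM with LPS and 1.69, 2.79 and 1.39 CPM in control medium (2.61 ± 0.38). Il6 was below the limit, at 0.326, 2.72 and 0.944 CPM with LPS and 0, 0.298 and 0 CPM in control medium. Il12b, a subunit of interleukins 12 and 23, averaged 2.25 ± 0.647 CPM with LPS and 1.53 ± 1.74 CPM in control medium (SD, n = 3 each), and was not called. Ifnb1, interferon beta, was low after 2 days, at 2.00, 3.44 and 1.35 CPM with LPS and 0.115, 0.0373 and 0 CPM in control medium, and was called higher (2.26 ± 0.35). Tgfb1 was the member called lower (-0.39 ± 0.10), and it kept this call in 1 of the 6 fits that left out 1 library.

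Chemokine ligands rose in 12 of 22 tested members and fell in 3, and 1 of the 12 passed the level limit through the LPS libraries alone. After Ccl5, the largest rises were those of the monocyte chemokines Ccl8, with 62.6, 109.6 and 82.1 CPM with LPS and 0.959, 2.05 and 0.870 CPM in control medium (5.59 ± 0.30), and Ccl12, with 71.9, 133 and 82.0 CPM with LPS and 1.34, 2.65 and 1.22 CPM in control medium (5.43 ± 0.31). The ligands of CXCR3 did not move alike. Cxcl10 had 289.7, 481 and 384 CPM with LPS and 3.64, 28.5 and 10.0 CPM in control medium (5.13 ± 0.63, adjusted p = 0.00146), and Cxcl11 rose by 5.34. Cxcl9 had 14.2, 16.5 and 10.6 CPM with LPS and 1.11, 2.42 and 17.7 CPM in control medium and was not called (adjusted p = 0.16), the control value of 17.7 CPM lying above all 3 LPS values. The members that fell were Cxcl14 (-2.37), Cx3cl1 (-1.42) and the platelet factor Pf4 (-1.08). Among 11 tested chemokine receptors 3 rose and 4 fell, against 16.6% and 15.8% of all genes tested. Of the 3 that rose, 1 passed the level limit through the LPS libraries alone. Cxcr4, the receptor of CXCL12, averaged 25.8 ± 7.75 CPM with LPS and 129.7 ± 25.1 CPM in control medium (SD, n = 3 each), a fall of 2.34 ± 0.25 (SE), and Ccr2, the receptor for monocyte recruitment, had 11.1, 8.66 and 7.06 CPM with LPS and 35.6, 40.5 and 45.5 CPM in control medium (-2.14 ± 0.19).

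Of 54 tested antiviral interferon-stimulated genes 52 rose and 1 fell, with a median of 2.64, against 16.6% higher among all genes tested. Their summed level was 24677, 28295 and 24964 CPM with LPS and 2886, 6484 and 3263 CPM in control medium. The count remained at 52 without control replicate 2. Oasl1, a member of the oligoadenylate synthetase family, averaged 663 ± 30.1 CPM with LPS and 14.6 ± 8.07 CPM in control medium (SD, n = 3 each), a rise of 5.59 (SE 0.34, adjusted p = 0.000154). Rsad2, the antiviral enzyme viperin, had 2270.4, 3031 and 2289.9 CPM with LPS and 49.3, 199.8 and 48.3 CPM in control medium (4.99 ± 0.52). Slfn1, of the Schlafen family, rose by 5.11. The exception was Ifi27, listed with interferon genes, which had 12.2, 17.7 and 13.5 CPM with LPS and 69.6, 62.9 and 68.5 CPM in control medium (-2.19 ± 0.15, adjusted p = 0.000188).

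Interferon-inducible GTPases, which act on vacuoles that hold pathogens, rose in 18 of 19 members and fell in 0. The counts in this paragraph stand beside 16.6% higher and 15.8% lower among all genes tested. Their sum was 4441, 6741 and 5373 CPM with LPS and 351, 1082 and 1298 CPM in control medium. Tgtp1 had 91.7, 146 and 133 CPM with LPS and 1.04, 5.40 and 4.13 CPM in control medium (5.13 ± 0.48), and Gbp6 and Iigp1 rose by 4.41 and 4.38. Tgtp1 and Tgtp2 are near-identical, as are several Gbp and H2-Q genes, so the split of reads between such copies is uncertain. Factors that relay the interferon signal rose in 13 of 21 tested members and fell in 0. Irf7, which amplifies interferon production, had 2498, 2438 and 2697 CPM with LPS and 36.7, 309 and 42.7 CPM in control medium (5.00 ± 0.74), and the higher control value was again replicate 2. The feedback inhibitors Usp18 and Socs1 rose by 4.54 and 3.94.

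Class I and class II genes of antigen presentation were counted apart. Class I genes and their peptide loading machinery rose in 21 of 24 members and fell in 2, and the count was 21 without control replicate 2. H2-Q6 had 486, 793 and 635 CPM with LPS and 8.86, 35.3 and 8.35 CPM in control medium (5.44 ± 0.52), and H2-Q4 and H2-Q7 rose by 3.48 and 4.90. The members that fell are chaperones of the endoplasmic reticulum: Calr, calreticulin, had 509, 513 and 510.4 CPM with LPS and 1323, 1141 and 1691 CPM in control medium (-1.42 ± 0.16), and Pdia3 fell by 0.64. Against 16.6% higher and 15.8% lower among all genes tested, 4 of 15 class II genes and regulators rose, 4 fell and 7 were not called. Of those that fell, H2-Aa had 223, 86.9 and 112 CPM with LPS and 387, 795 and 637 CPM in control medium (-2.16 ± 0.39, adjusted p = 0.00622). H2-Ab1 fell by 1.97, the invariant chain Cd74 by 1.78, and Ciita, the master regulator of the class, by 2.50. H2-Ab1 and Cd74 lost their call without control replicate 3, LPS replicate 2 or LPS replicate 3. Cd74 also lost it with the replicate number as a block and with all 27 libraries in the fit. Those that rose include March1, a ubiquitin ligase that removes class II from the surface (1.28 ± 0.20), and Ctss, the protease that trims the invariant chain (0.97 ± 0.16). The numbers that rose or fell were each between 2 and 5 when 1 library was left out.

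Costimulatory and checkpoint ligands rose in 9 of 22 tested members and fell in 3, against 16.6% and 15.8% of all genes tested. Without control replicate 2 they rose in 13. Of the 9, 1 passed the level limit through the LPS libraries alone. Cd274, the checkpoint ligand PD-L1, had 867, 1551 and 968 CPM with LPS and 61.5, 97.9 and 89.1 CPM in control medium (3.74 ± 0.26, adjusted p = 0.000213). Cd40 had 49.3, 105 and 61.1 CPM with LPS and 7.02, 11.6 and 6.22 CPM in control medium (3.01 ± 0.32). Cd86, a costimulatory ligand often used to mark LPS-treated macrophages, had 75.8, 76.3 and 84.3 CPM with LPS and 13.0, 66.7 and 16.0 CPM in control medium. The groups did not overlap, and the difference of 1.68 ± 0.55 missed the threshold (adjusted p = 0.0546). Cd276 fell by 1.95.

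Among 28 tested genes of arginine, itaconate and immune metabolism 9 rose and 3 fell, against 16.6% and 15.8% of all genes tested. Besides Irg1 and Nos2, Sod2, the mitochondrial superoxide dismutase, had 409, 544 and 479 CPM with LPS and 46.8, 66.1 and 43.6 CPM in control medium (3.20 ± 0.18), and Ass1, which regenerates arginine from citrulline, rose by 2.98. Arg1, arginase, had 8.33, 6.36 and 10.5 CPM with LPS and 8.90, 9.54 and 5.83 CPM in control medium, and its difference of 0.05 had a 95% interval from -0.55 to 0.65. Ptgs1 and Ltc4s, enzymes of prostaglandin and leukotriene synthesis, fell by 1.88 and 1.76. Inflammasome genes, caspases and gasdermin D rose in 17 of 24 tested members and fell in 0. Zbp1, a sensor of Z-form nucleic acids, had 329, 372 and 353 CPM with LPS and 9.17, 56.9 and 28.3 CPM in control medium (3.80 ± 0.57), and Mefv, pyrin, rose by 3.16.

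Complement genes rose in 5 of 21 members and fell in 3. Cfb, factor B, which activates the alternative pathway, had 964, 901 and 1077 CPM with LPS and 18.3, 29.7 and 17.1 CPM in control medium (5.50 ± 0.21, adjusted p = 4.3e-05). Without control replicate 2, 8 complement genes rose. Among all genes tested 16.6% were called higher and 15.8% lower. Of 22 tested antimicrobial and acute-phase genes 6 rose and 4 fell, and 10 rose and 2 fell without that library, but 3 rose and 4 fell without control replicate 1. The rises were led by Saa3 and Marco, a scavenger receptor (4.23 ± 0.61). The members that fell were Ltf, Camp, S100a8 and S100a9, which neutrophils also make. Neutrophil markers summed to 447 to 563 CPM with LPS and 723 to 1428 CPM in control medium, and their part in this result was not tested.

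Phagocytic receptors moved in both directions, with 10 of 34 tested members higher and 15 lower. Clec4e (Mincle), a receptor for mycobacterial glycolipid, had 312, 417 and 485 CPM with LPS and 10.2, 48.5 and 9.48 CPM in control medium (4.52 ± 0.58). Fcgr1, the high-affinity IgG receptor, had 1644, 1569 and 1728 CPM with LPS and 189.8, 323 and 281 CPM in control medium (2.67 ± 0.20). Mrc1, the mannose receptor, had 169, 86.4 and 196 CPM with LPS and 745, 752 and 534 CPM in control medium (-2.23 ± 0.31), and Gas6, a bridging protein between dying cells and MERTK, fell by 2.18. Lysosomal proteases and hydrolases also went both ways (9 of 31 higher, 8 lower, against 16.6% and 15.8% of all genes tested). Ctsc, cathepsin C, had 2392, 2009.7 and 2143 CPM with LPS and 335, 632 and 369 CPM in control medium (2.35 ± 0.24), while Atp6v0d2, a proton pump subunit, fell by 2.46 and the acid lipase Lipa fell by 1.58.

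**Figure D2:**
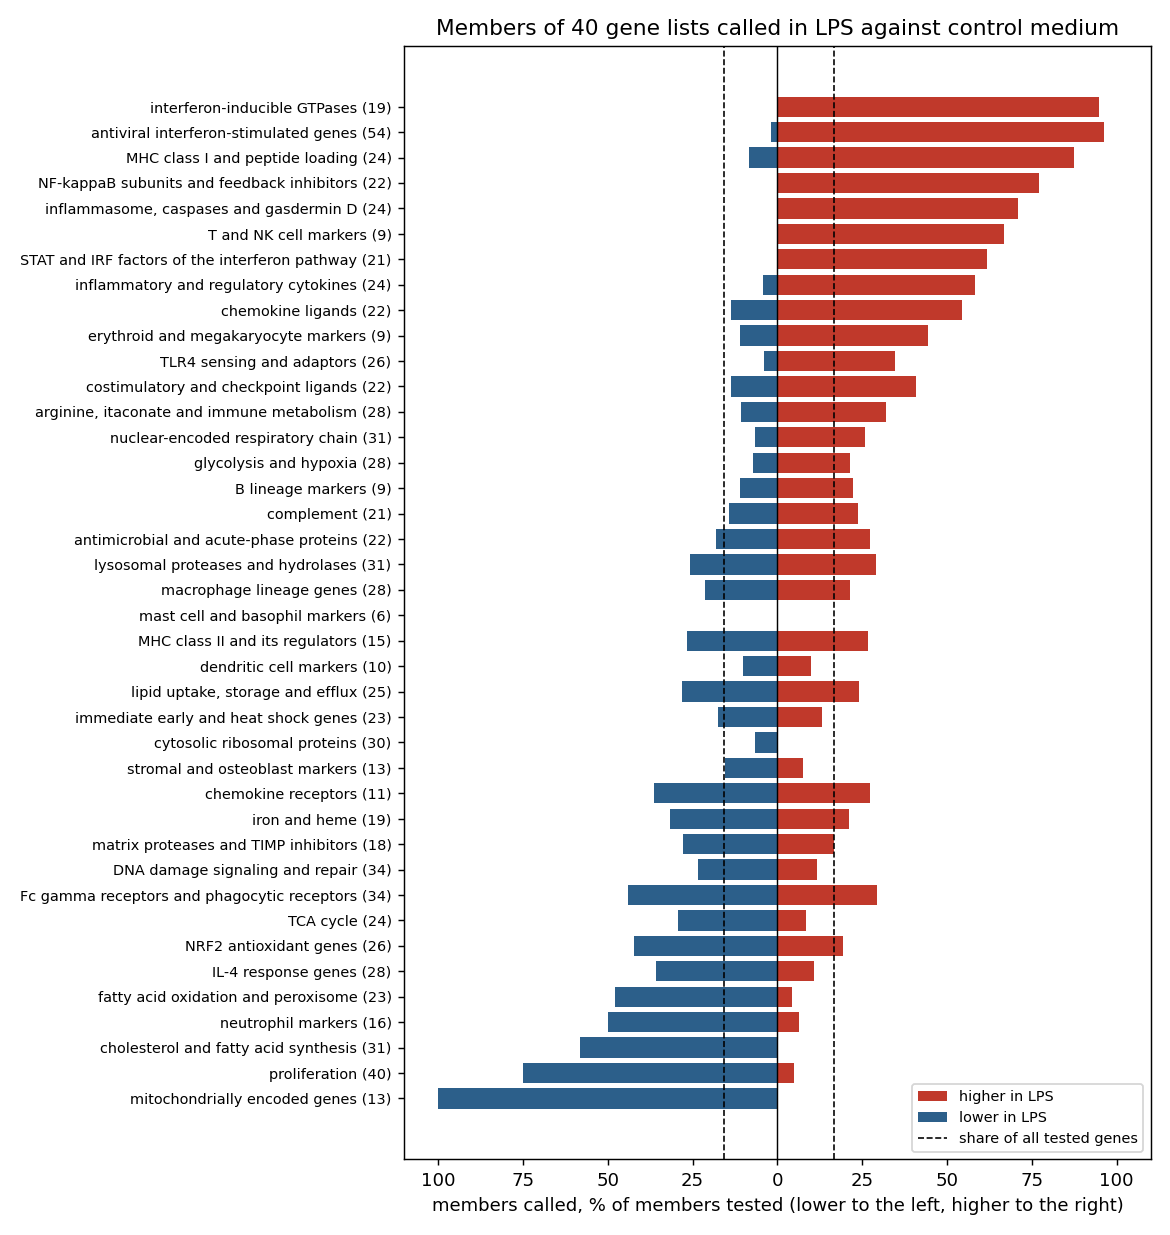
Share of tested members of 40 gene lists that were called lower (left) or higher (right) in LPS against control medium, with the number of tested members in brackets and the shares of all tested genes, 15.8% and 16.6%, as dashed lines. Antiviral genes (52 of 54 higher) stand at one end and mitochondrially encoded genes (13 of 13 lower) at the other.

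Genes of the mitochondrial genome fell together. All 13 tested protein-coding genes were called lower, with fold changes between -1.88 and -0.76 and a median of -1.44, and all 13 were called under each of the 18 alternatives that were run. Their sum was 5615, 5435 and 4968 CPM with LPS and 11941, 12522 and 11319 CPM in control medium. mt-Cytb, cytochrome b of complex III, had 276, 295 and 256 CPM with LPS and 940.2, 858 and 939 CPM in control medium (-1.73 ± 0.11, adjusted p = 0.000155). mt-Nd3, of complex I, had 29.4, 28.1 and 26.0 CPM with LPS and 116, 92.7 and 105 CPM in control medium (-1.88 ± 0.11). The mitochondrial share of a library is also used as a sign of RNA quality: it was 0.467% to 0.534% with LPS and 1.189% to 1.347% in control medium, and its part in the other results was not tested. The nuclear genes of the respiratory chain did not follow: of 31 tested 8 rose and 2 fell, with a median of 0.21. Among all genes tested 16.6% rose and 15.8% fell. Cycs, cytochrome c, had 103, 133 and 115 CPM with LPS and 52.1, 50.9 and 52.7 CPM in control medium (1.16 ± 0.11), while Ndufs1, of complex I, fell by 0.54. Leaving out 1 library left 3 to 7 that rose. With all libraries set to the same total, 3 rose and 4 fell.

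In the list of TCA cycle and related enzymes 2 of 24 tested genes rose and 7 fell. The largest fall was that of Idh1, an isocitrate dehydrogenase of the cytosol and so not an enzyme of the mitochondrial cycle. It had 164, 132 and 161 CPM with LPS and 419, 357 and 420.3 CPM in control medium (-1.39 ± 0.13). Fh1, fumarase, fell by 1.17. Fatty acid oxidation and peroxisome genes rose in 1 of 23 and fell in 11. Cat, catalase, had 122, 98.7 and 129 CPM with LPS and 457, 387 and 362 CPM in control medium (-1.78 ± 0.14), and Hadhb, of the mitochondrial trifunctional protein, fell by 1.15. Cholesterol and fatty acid synthesis genes rose in 0 of 31 and fell in 18. Sqle, squalene epoxidase, had 21.6, 19.5 and 27.6 CPM with LPS and 90.2, 52.1 and 69.5 CPM in control medium (-1.58 ± 0.22). Glycolysis and hypoxia genes rose in 6 of 28 and fell in 2 (4 to 8 and 0 to 2 when 1 library was left out), against 16.6% and 15.8% of all genes tested. Pfkfb3, which makes an activator of glycolysis, had 348, 592 and 355 CPM with LPS and 81.5, 161 and 81.8 CPM in control medium (2.02 ± 0.32), and Slc2a6 and Hif1a rose by 2.07 and 0.79. Pdk1 fell by 1.42, and Slc2a1, the glucose transporter GLUT1, had 60.4, 74.5 and 52.8 CPM with LPS and 88.9, 50.6 and 59.9 CPM in control medium and was not called.

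**Figure D3:**
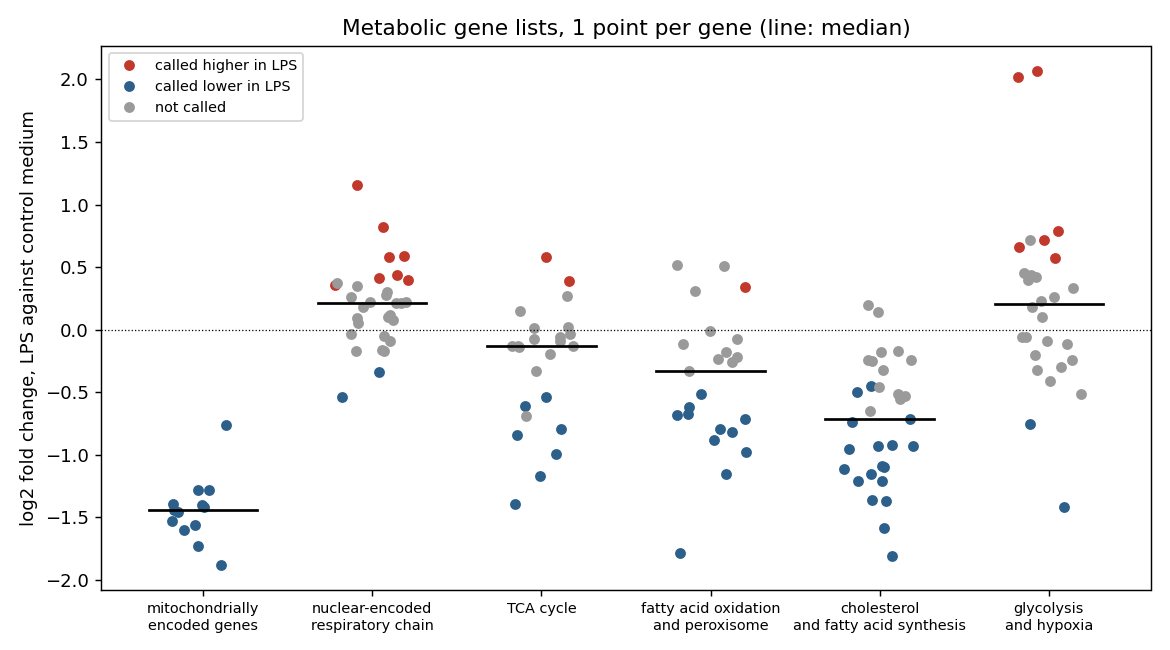
Log2 fold change of LPS against control medium for each tested gene of 6 metabolic lists, coloured by call, with the list median as a line. The mitochondrially encoded genes lie between -1.88 and -0.76, while the nuclear-encoded respiratory chain lies around a median of 0.21.

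Lipid uptake, storage and efflux genes rose in 6 of 25 tested and fell in 7. The counts in this paragraph stand beside 16.6% higher and 15.8% lower among all genes tested. Acsl1, which activates long-chain fatty acids, had 487, 593 and 615 CPM with LPS and 50.4, 65.2 and 45.7 CPM in control medium (3.39 ± 0.16, adjusted p = 4.8e-05). Lpl, lipoprotein lipase, had 912, 853 and 1050.0 CPM with LPS and 6999.9, 2884 and 6428 CPM in control medium (-2.44 ± 0.33), and its inhibitor Angptl4 fell by 3.64. The scavenger receptor Cd36 fell by 1.88. Iron and heme genes rose in 4 of 19 tested (1 to 5 when 1 library was left out) and fell in 6. Fth1, the ferritin heavy chain, had 32092, 27773 and 34212 CPM with LPS and 9704, 14018 and 10626 CPM in control medium (1.47 ± 0.19). Tfrc, the transferrin receptor, had 328, 241 and 383 CPM with LPS and 1327, 1304 and 930.4 CPM in control medium (-1.91 ± 0.21), and Slc40a1, the iron exporter ferroportin, fell by 1.72. NRF2 antioxidant genes rose in 5 of 26 and fell in 11. Sqstm1, p62, rose by 1.17, and Nqo1 and Gstm1, detoxifying enzymes, fell by 1.11 and 1.21.

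Of 28 tested genes of the IL-4 response 3 rose and 10 fell. Besides Mmp12, Itgax (CD11c) had 21.8, 67.6 and 24.9 CPM with LPS and 434, 182 and 529 CPM in control medium (-3.36 ± 0.53), and Egr2, a transcription factor, had 2.09, 3.35 and 2.07 CPM with LPS and 35.8, 13.9 and 30.1 CPM in control medium (-3.09 ± 0.37). Il4ra, the IL-4 receptor chain, and Tgm2, transglutaminase 2, rose by 1.23 and 1.74. Matrix proteases and their inhibitors rose in 3 of 18 and fell in 5, against the same shares of all genes tested, 16.6% and 15.8%. Mmp14, a membrane-bound collagenase, had 931, 700.5 and 913 CPM with LPS and 134, 312 and 113 CPM in control medium (2.32 ± 0.36), in the other direction from Mmp12. Among 28 macrophage lineage genes 6 rose and 6 fell, against those same shares of all genes tested. Cebpb and Cebpa, related transcription factors of the myeloid lineage, moved apart: Cebpb had 241, 218 and 207 CPM with LPS and 51.1, 37.0 and 43.1 CPM in control medium (2.34 ± 0.14, adjusted p = 0.000119), and Cebpa had 111, 81.9 and 97.9 CPM with LPS and 364, 298 and 426 CPM in control medium (-1.89 ± 0.17, adjusted p = 0.0004). Trem2, a lipid receptor, and its adaptor Tyrobp fell by 1.91 and 1.64, and Apoe fell by 1.18. Apoe lost this call without control replicate 1 or 3 or LPS replicate 1, and also without the intensity trend or robust moderation.

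Most cell cycle genes fell. Of 40 proliferation genes 30 were called lower and 2 higher, with a median of -0.85, against 15.8% lower among all genes. Their sum was 1170.2, 1335 and 1132 CPM with LPS and 2281, 1700.2 and 2129 CPM in control medium. Top2a, a topoisomerase of dividing cells, had 37.9, 43.7 and 50.9 CPM with LPS and 122, 87.2 and 113 CPM in control medium (-1.27 ± 0.16, adjusted p = 0.00143). Ccnb2, a mitotic cyclin, had 6.70, 4.96 and 4.99 CPM with LPS and 16.7, 18.2 and 19.4 CPM in control medium (-1.63 ± 0.17), and Ccne2 and Kif11 fell by 1.49 and 1.48. The genes called higher are the D-type cyclins Ccnd3 (1.08 ± 0.27) and Ccnd2 (0.78 ± 0.25), and 0 or 1 of the list was called higher when 1 library was left out. The calls depend on which libraries set the spread. Leaving out 1 of the 6 libraries gave 28 to 31 lower, but 3 were called lower when the 3 IL-4 libraries shared the fit, 9 with 21 libraries and 4 with all 27. The proliferation sum of the IL-4 libraries ranged over 2668, 3184 and 1584 CPM. DNA damage and repair genes rose in 4 of 34 tested (2 in each fit without 1 library) and fell in 8, against 16.6% and 15.8% of all genes. H2afx, the histone H2AX, was lower by 1.05 ± 0.15 and Mdm2 was higher by 1.17 ± 0.25. Cytosolic ribosomal proteins rose in 0 of 30 and fell in 2, with 0 to 4 lower when 1 library was left out and 6 lower with all libraries set to the same total.

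**Figure D4:**
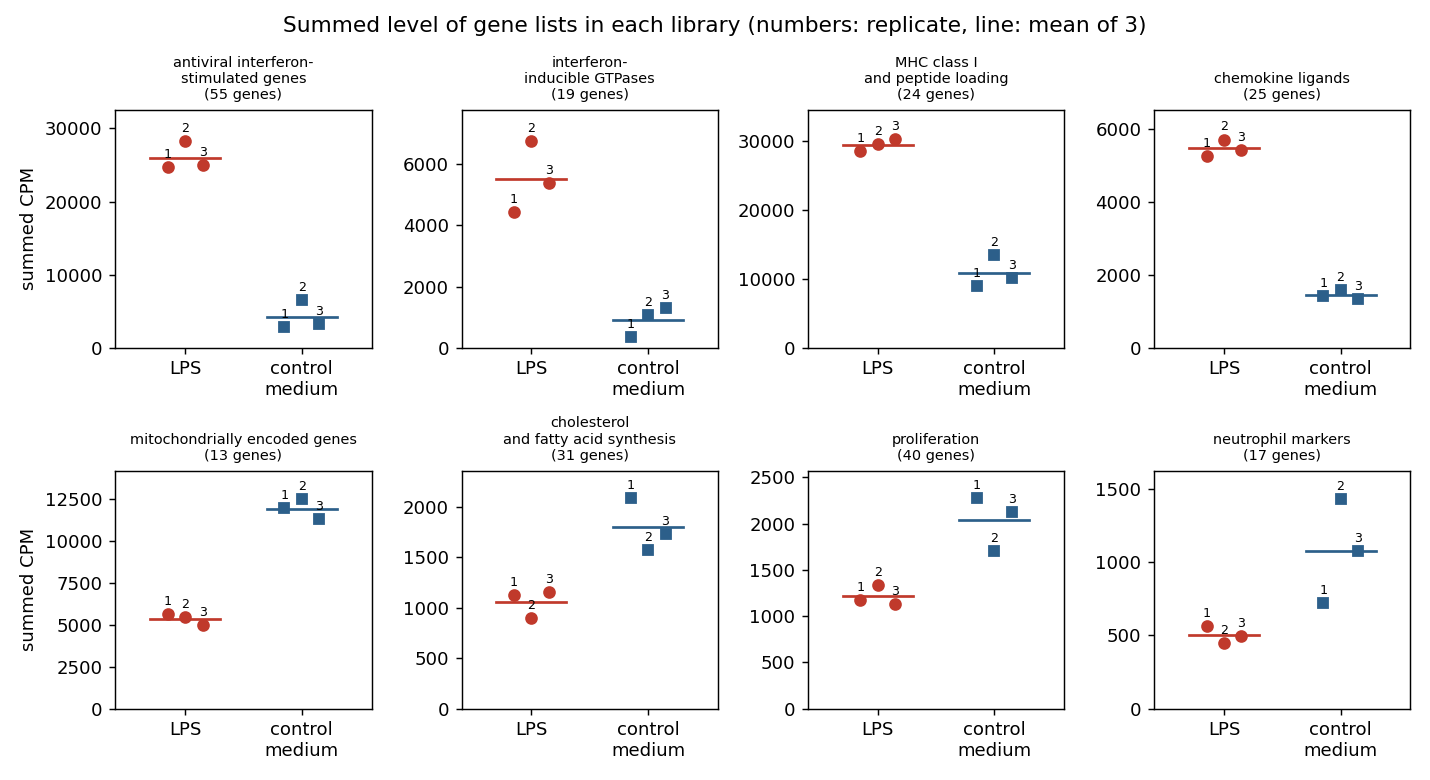
Summed CPM of 8 gene lists in each library, LPS as circles to the left and control medium as squares to the right, with replicate numbers and the group mean as a line, each axis starting at 0. The antiviral genes sum to 24677 to 28295 CPM with LPS and 2886 to 6484 CPM in control medium, where replicate 2 is highest; mitochondrially encoded genes sum to 4968 to 5615 CPM with LPS and 11319 to 12522 CPM in control medium.

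Markers of other cells that a marrow culture could hold were read beside these results. Neutrophil markers fell in 8 of 16 tested genes and rose in 1, against 15.8% lower and 16.6% higher among all genes tested. Their sum was 563, 447 and 493 CPM with LPS and 723, 1428 and 1077 CPM in control medium. Ngp, a neutrophil granule protein, had 68.0, 20.6 and 54.6 CPM with LPS and 135, 259 and 249 CPM in control medium (-2.26 ± 0.46), and Ltf, lactoferrin, fell by 2.46. Leaving out 1 library left 3 to 7 of the 16 that fell, 4 without control replicate 2. T and NK cell markers rose in 6 of 9 tested genes, with 9 more below the limit. Of those 6, 5 passed the limit through the LPS libraries alone, which favours rises. Gzmb, granzyme B, had 42.7, 31.1 and 42.3 CPM with LPS and 0.307, 0.708 and 0.261 CPM in control medium (5.42 ± 0.25, adjusted p = 4.8e-05), and Gzmc, Il2rb and Ifng, also genes of cytotoxic lymphocytes, rose by 3.87, 3.04 and 2.26. Among the defining markers of those cells, Cd3d was below the limit but did not overlap between the groups, at 1.16, 0.933 and 1.66 CPM with LPS and 0, 0.633 and 0.435 CPM in control medium. Ncr1 stayed at or below 0.629 CPM and Prf1 at or below 0.279 CPM in the 6 libraries. The sum of this list was 191, 158 and 169 CPM with LPS and 57.9, 186 and 28.1 CPM in control medium. Its largest part is Cd4, which macrophages can also express and which averaged 85.3 ± 13.9 CPM with LPS and 81.7 ± 80.0 CPM in control medium (SD, n = 3 each), with 172 CPM in control replicate 2. The part of these cells in the result was not tested.

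For the remaining lists, counts stand beside 16.6% higher and 15.8% lower among all genes tested. B lineage markers rose in 2 of 9 tested genes and fell in 1 (1 to 2 and 0 to 1 when 1 library was left out). Of the 2 that rose, 1 passed the level limit through the LPS libraries alone. The B lineage sum was 161 to 194 CPM with LPS and 191 to 243 CPM in control medium. Dendritic cell markers rose in 1 of 10 and fell in 1, and 3 rose without control replicate 2. The member that rose is Bst2 (3.12 ± 0.44), which is also an interferon-stimulated gene. Mast cell and basophil markers were not called in any of 6 tested genes (limma; 2 had an unadjusted p below 0.05, and 3 were called higher without control replicate 2), and summed to 22.4 to 31.4 CPM with LPS and 7.44 to 29.5 CPM in control medium. Erythroid and megakaryocyte markers rose in 4 of 9 (0 to 4 when 1 library was left out) and fell in 1, with sums of 133 to 199 CPM with LPS and 143 to 236 CPM in control medium. Of the 4 that rose, 1 passed the level limit through the LPS libraries alone. Stromal and osteoblast markers rose in 1 of 13 and fell in 2. They fell in 0 without control replicate 1 or 3 or LPS replicate 3, and in 8 without control replicate 2, whose sum of 174 CPM lay well below the 634 and 555 CPM of control replicates 1 and 3, while the LPS libraries had 239, 76.6 and 144 CPM. Immediate early and heat shock genes rose in 3 of 23 and fell in 4 (1 to 6 when 1 library was left out), among them Myc, a growth-promoting transcription factor (-1.52 ± 0.34). The part of these cells in the results was not tested.

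Set against IL-4, which drives macrophages towards the alternative state called M2, LPS gave 4757 calls in the same 12137 genes (39.2%), 2449 higher (20.2%) and 2308 lower (19%), in a fit of the 9 non-irradiated libraries. This comparison shares its LPS libraries with the one above, so the values are given side by side and their overlap is not read as a result. The level limit was set on the LPS and control libraries, so genes present with IL-4 alone could not enter. That limit works against calls lower with LPS, and 3 listed IL-4 response genes were below it. Of the 28 IL-4 response genes 26 were lower with LPS than with IL-4 and 1 was higher, whereas 10 were lower with LPS than in control medium. Retnla, a secreted resistin-like protein, had 36.0, 17.1 and 21.3 CPM with LPS, 3321 ± 496 CPM with IL-4 (SD, n = 3) and 29.6, 18.9 and 14.9 CPM in control medium. LPS differed from IL-4 by -7.09 (adjusted p = 1.2e-06) and from control medium by 0.22 (95% interval -0.56 to 0.99, adjusted p = 0.659). Arg1 averaged 8.40 ± 2.08 CPM with LPS and 509 ± 303 CPM with IL-4 (SD, n = 3 each; -5.59, adjusted p = 3.2e-05). Socs1 had 22.3, 56.4 and 22.5 CPM with LPS and 26.9 ± 7.42 CPM with IL-4 (SD, n = 3), and the difference of 0.22 was not called (95% interval -0.91 to 1.35). Against IL-4, 13 of the 13 mitochondrially encoded genes were called lower, and of the 54 antiviral genes 53 were called higher and 1 lower.

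The same contrast in irradiated cells used the 8 libraries of replicates 2 and 3, 4 with LPS and 4 in control medium, with the irradiation mode in the fit. They share no library with the non-irradiated comparison. Replicate 1 of these groups was left out because it goes against its labels: Saa3 had 19.7 and 28.1 CPM in the libraries labelled FLASH and standard LPS, against 8.66 and 33.3 CPM in those labelled FLASH and standard control. In the same replicate Retnla, which IL-4 raises, had 7.46 and 1081 CPM in the libraries labelled LPS and 848 and 33.2 CPM in those labelled control. With replicate 1 included, limma called 0 of the 12137 genes, and 3337 had an unadjusted p below 0.05. With the 8 libraries, 4826 genes (39.8%) were called, 2458 higher with LPS (20.3%) and 2368 lower (19.5%). Of the 2015 genes called higher without irradiation, 1438 (71.4%) were called higher here too, 10 were called lower, and 1912 (94.9%) had the same sign. Of the 1917 called lower, 1255 (65.5%) were called lower here, 52 were called higher, and 1646 (85.9%) had the same sign. The fold changes of the 12137 genes correlated at 0.781 (Pearson's r across genes, which are not independent replicates). The libraries of this comparison were chosen by their response genes, so its counts are a description. FLASH and standard libraries of the same stimulus and number may share their source, and with each such pair averaged 3790 genes were called.

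The difference between the LPS effects was tested in 1 fit of the 14 libraries, added after the opposite signs of cell cycle genes had been seen, so its calls for those genes are no independent evidence. In that fit 472 genes (3.89%) were called, 201 with a more positive LPS effect without irradiation (1.66%) and 271 with a more negative one (2.23%). Of the 40 proliferation genes 24 were among the more negative and 0 among the more positive. Their sum after irradiation was 1597 and 1955 CPM with LPS and 1655 and 1853 CPM in control medium for FLASH replicates 2 and 3. It was 1565 and 2024 CPM with LPS and 1695 and 1901 CPM in control medium for the standard ones, so libraries of the same stimulus and number lay closer to each other than to those of the other number. The calls did not hold when these libraries were not counted separately. With FLASH and standard libraries of the same stimulus and number averaged to 1 value, 8 genes were called (1712 at an unadjusted p below 0.05) and 0 of the 40 proliferation genes. With replicate 1 of the irradiated groups included, 35 genes were called (1734 at an unadjusted p below 0.05) and again 0 of the 40. With the replicate number as a block, 255 genes and 22 of the 40 were called.

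The median LPS effect of the proliferation genes was -0.85 without and 0.49 with irradiation. Top2a, which fell without irradiation, had 50.4, 104, 53.1 and 91.2 CPM with LPS and 44.2, 47.5, 52.2 and 31.9 CPM in control medium after irradiation (FLASH replicates 2 and 3, then standard replicates 2 and 3). Both high values with LPS were those of replicate 3. The LPS effects differed by -1.97 (95% interval -2.75 to -1.20, adjusted p = 0.0158, and 0.0787 with the averaged libraries). Rrm2, a subunit of ribonucleotide reductase, had 20.1, 26.7 and 19.5 CPM with LPS and 48.9, 46.5 and 48.4 CPM in control medium without irradiation, and its LPS effects differed by -2.02 (adjusted p = 0.0202, and 0.0845 with the averaged libraries). Leaving out 1 of the 14 libraries left 7 to 30 proliferation genes called: 7 without control replicate 3 or without LPS replicate 3 of the non-irradiated cells, 9 without their control replicate 1, and 10 without the standard control replicate 2. The number was 11 without FLASH LPS replicate 3, 12 without LPS replicate 1 of the non-irradiated cells, 14 and 15 without FLASH control replicates 3 and 2, and 16 or more without any other library.

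Of the 28 genes named here that were called in the 14-library fit, 3 were called with the averaged libraries: Gzmb, Gzmc and Cxcl11. The level limit of this fit was set on the 6 non-irradiated LPS and control libraries. Genes that passed it through the LPS libraries alone, Gzmb among them, were thus favoured for a more positive LPS effect without irradiation. Of the 6 T and NK cell markers that rose without irradiation, 5 passed in that way. Gzmb was at or below 0.725 CPM with LPS in the 4 irradiated libraries, and its LPS effects differed by 5.61 (95% interval 4.82 to 6.41, adjusted p = 1.2e-05, and 0.000929 with the averaged libraries). With IL-4 and no irradiation it had 4.15, 14.2 and 2.07 CPM. In control medium, neutrophil markers summed to 119 to 156 CPM after irradiation and 723 to 1428 CPM without. With LPS they summed to 175 to 413 CPM and 447 to 563 CPM. Over both media, B lineage markers summed to 20.5 to 43.8 CPM after irradiation and 161 to 243 CPM without. T and NK cell markers summed to 40.5 to 112 CPM and 28.1 to 191 CPM. The part of these cells in the differences was not tested. H2-Ab1 fell by 1.97 without irradiation. After irradiation it had 32.2 to 35.7 CPM in the 4 libraries with LPS and 17.8 to 31.7 CPM in the 4 in control medium, a change of 0.41. The difference of the effects was -2.38 (adjusted p = 0.0267, and 0.146 with the averaged libraries). Of the 54 antiviral genes 5 were called in the 14-library fit, all with the larger LPS effect without irradiation, and 0 with the averaged libraries. Their median LPS effect was 2.64 without and 1.86 with irradiation. Of the 13 mitochondrially encoded genes, 4 were called with the more negative effect without irradiation and 0 with the averaged libraries, and all 13 were lower with LPS in both settings.

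**Figure D5:**
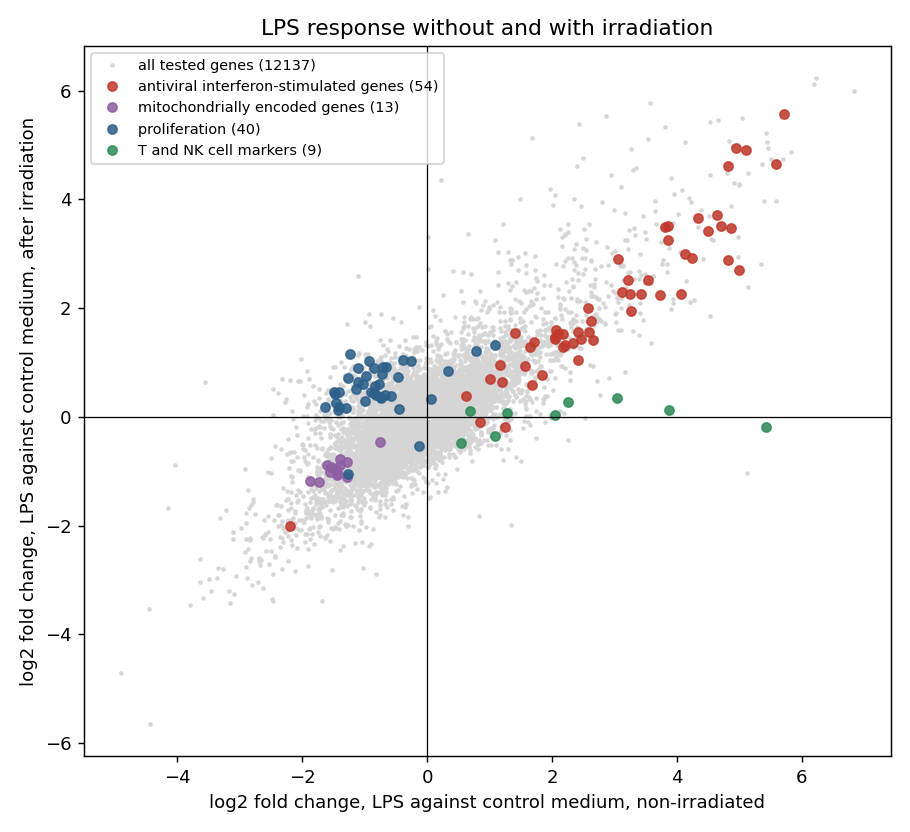
Log2 fold change of LPS against control medium without irradiation (horizontal, 6 libraries) and after irradiation (vertical, 8 libraries) for 12137 genes, with 4 gene lists coloured. Antiviral genes lie towards the upper right, proliferation genes mostly in the upper left (median -0.85 without and 0.49 with irradiation), and the T and NK cell markers near 0 on the vertical axis.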

How the data were processed

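RNA of cultured macrophages was sequenced. Per the submitters' processing notes, reads were quantified with kallisto 0.46.1 and scaled with edgeR 3.36.0 in R 4.0.5, with a human build, GRCh38, named for these mouse samples. The signal values deposited by the authors are CPM, read counts scaled to library size, on a linear scale, with column sums that differ as TMM scaling makes them. Within 0.01 of a read, 96.56% to 98.22% of the values were whole reads in the 6 libraries. Among values under 20 reads the share was 86.82% to 93.66%, so tests made for counts were not used. Of 19070 entries, 1 had no symbol and was left out.

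Groups were compared with limma 3.58.1 (statmod 1.5.0, R 4.3.3) on log2(CPM + 0.5), with an intensity trend and robust moderation. A gene was called at a Benjamini-Hochberg adjusted p below 0.05 over all 12137 genes tested, and all p values are two-sided. The fits used the 6 libraries compared (LPS against control medium), the 9 non-irradiated libraries (LPS against IL-4), 8 irradiated libraries with the irradiation mode as a covariate, and 14 libraries for the difference between LPS effects. In each of these fits the level limit was that set on the 6 libraries compared. The test of the difference and its alternatives were added after the data were seen. Methods were tested on simulated data.

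Genes were named from either end of the fold changes, 12 per direction, if called, without overlap between the 6 libraries and not below 5 CPM on average where higher; predicted gene models were passed over. Members of the gene lists could be named too. A few of these genes are not reported here. The lists and the comparison were chosen with earlier results of these data known. Alternatives changed the pseudocount, level limit, scaling, moderation, libraries in the fit and a block for replicate number.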

Additional observations from a re-analysis of the deposited data

Results flagged for a closer look

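The effect of LPS differed without and with irradiation for 472 of 12137 genes in limma's test of the difference itself, among them 24 of the 40 proliferation genes. The test was added after the opposite signs of cell cycle genes had been seen, so it is no independent evidence for them, and 7 to 30 of the 40 were called when 1 library was left out. The values below are the LPS effect without irradiation minus that with irradiation, on the log2 scale. With replicate 1 of the irradiated groups included, 35 genes and 0 of the 40 were called. With FLASH and standard libraries of the same stimulus and number averaged, 8 genes and 0 of the 40 were called, and of the genes listed here Gzmb, Gzmc and Cxcl11 kept their call.

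Cell cycle genes differed by -1.97 for Top2a, -1.82 for Ccnb2, -1.94 for Ccne2, -1.90 for Kif11 and -2.02 for Rrm2, and the histone gene H2afx differed by -1.46. Genes of cytotoxic lymphocytes differed by 5.61 for Gzmb, 3.75 for Gzmc, 2.69 for Il2rb and 1.98 for Ifng. Gzmb passed the level limit through the non-irradiated LPS libraries alone, which favours a positive difference. Interferon-related genes and chemokines differed by 2.74 for Tgtp1, 2.30 for Rsad2, 2.53 for Cxcl11 and 2.12 for Il18bp, and the chemokine Cx3cl1 differed by -1.47.

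The class II genes H2-Aa and H2-Ab1 differed by -2.27 and -2.38. Neutrophil genes differed by -2.50 for Ltf and -1.70 for S100a8. Neutrophil markers summed to less after irradiation than without, and their part here was not tested. The metabolic genes mt-Cytb, mt-Nd3 and Fh1 differed by -0.54, -0.70 and -0.89, and Acsl1 by 0.70. Among the remaining genes named above, Fcrls differed by -2.48, Vsig8 by -3.16, Mertk by 1.17, Tgm2 by 1.40 and Cebpb by 0.97.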

How the results depend on the processing

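The 3932 genes called between LPS and control medium became 2367 when all 27 libraries shared the fit, 1338 higher and 1029 lower, with 2247 of them called in the same direction by both. Leaving out 1 library gave 2667 to 4189, and the remaining alternatives gave 3431 to 4523. The sample titles carry a tag that same-numbered libraries of all groups share, and its meaning is not given. Deviations of same-numbered LPS and control libraries correlated at 0.041, 0.046 and -0.129, which does not settle whether they were paired. With the replicate block 3431 genes were called. LPS against IL-4 gave 3976 to 4996 calls over its alternatives. With replicates 1, 2 and 3, the irradiated comparison gave 0 calls by limma (3337 at an unadjusted p below 0.05), and the difference between LPS effects gave 35. With FLASH and standard libraries of the same stimulus and number averaged, an alternative added after seeing the data, the irradiated comparison gave 3790 calls and the difference gave 8; with the replicate block the difference gave 255. Leaving out 1 of the 14 libraries gave 143 to 806 calls of the difference, 143 without LPS replicate 3 and 806 without control replicate 2 of the non-irradiated cells. Of the non-irradiated libraries, control replicates 1 and 3 and LPS replicate 1 gave 216, 190 and 245 when left out. FLASH control replicates 2 and 3 gave 237 and 204, FLASH LPS replicate 3 gave 187, standard control replicates 2 and 3 gave 218 and 292, and standard LPS replicate 3 gave 203. The causes were not tested.

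Of the 137 named genes called between LPS and control medium, 83 kept their call in each of the 18 alternatives. In each but the fit of all 27 libraries 117 kept it, and 0 changed direction. Calls lost in some fit without 1 library were those of Apoe, Camp, Ccnd2, Ccnd3, Cd74, H2-Ab1, Hif1a, Irak1, Mertk, Myc, Nqo1, Pdia3, Pdk1, S100a9 and Tgfb1. In the fit of all 27 libraries 5 NF-kappaB genes in place of 17 were higher, and 1 cholesterol synthesis gene in place of 18 was lower. Among genes that were not called, the sign was not stable: with all libraries set to the same total, Tlr4 was at -0.14 and Arg1 at -0.09. Leaving out 1 library moved Tlr4 between -0.10 and 0.09, Arg1 between -0.15 and 0.23, Slc2a1 between -0.23 and 0.17, Cd4 between -0.15 and 1.33 and Retnla between -0.08 and 0.48. Between 21.89 M and 24.94 M reads per library, with 3 libraries a group, limit what could be called among genes near 1 CPM.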
